A study of Mus musculus with 5 samples.

Results

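Fos, Fosb, Fosl1, Fosl2, Jun, Junb, Jund, Egr1, Egr2 and Egr3 are the mouse immediate-early transcription factor genes described here. They were chosen by gene name, and the transcripts of each gene were added up. All 10 were found among the 21667 genes listed, and all 10 were among the 13764 genes tested, those reaching 1 CPM in 2 libraries or more. The study put forskolin or cAMP on the shaved back skin of mice 3 times within 5 days and sequenced RNA of the whole epidermis, to follow cAMP and Creb signalling in hair follicle stem cell activation. The mice were C57BL/6 wildtype males at postnatal day 49. The control group is 1 library whose treatment is given as untreated, and the labels do not say whether that skin received the DMSO and PLO lotion that carried the compounds. The forskolin group is 2 libraries at 10 µM, and the cAMP group is 2 libraries at 1.325 mM. In all 5 libraries the epidermis was dissected and kept in trypsin overnight before the RNA was taken. Whether the 2 libraries of a treatment are from different mice is not labelled, so a p-value here reflects the spread among the sequenced libraries alone, which may be technical.

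Forskolin is a plant compound that activates adenylyl cyclase, the enzyme that makes cAMP in the cell. cAMP activates protein kinase A, which phosphorylates Creb, and Creb binds cAMP response elements in promoters such as that of Fos. Immediate-early genes are transcribed within minutes of a signal without new protein synthesis, and their RNAs are short-lived. Fos proteins pair with Jun proteins to form AP-1, which binds the element TGACTCA. Egr proteins are zinc finger factors that bind GC-rich elements. In epidermis AP-1 is known for its part in keratinocyte differentiation and in the answer to wounding. The same genes are also known to rise while tissue is taken apart into cells.

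The promoter letters of 4 members are shown because each holds a half-site of the cAMP response element that Creb is known to bind. Among these 4, only Egr2 also held the CArG box, the element of serum response factor, in the bases searched. RefSeq (GRCm38.p6) start sites were used for 7 of the 10 members, Fos, Fosb, Fosl2, Jun, Junb, Jund and Egr2. These 7 had 11 start sites in all. Fosl1, Egr1 and Egr3 were left out of the promoter search, which does not mean that RefSeq lacks their start sites. Each sequence is the 250 bases before a start site, read 5′ to 3′ on the strand of the gene. Capitals mark matches to the cAMP response element half-site, TGACG or its complement CGTCA, and to the CArG box of serum response factor. Fos lies at chr12:85473640-85473889 on the plus strand, Fosb at chr7:19310046-19310295 on the minus strand, Junb at chr8:84978749-84978998 on the minus strand and Egr2 at chr10:67537619-67537868 on the plus strand.
Fos: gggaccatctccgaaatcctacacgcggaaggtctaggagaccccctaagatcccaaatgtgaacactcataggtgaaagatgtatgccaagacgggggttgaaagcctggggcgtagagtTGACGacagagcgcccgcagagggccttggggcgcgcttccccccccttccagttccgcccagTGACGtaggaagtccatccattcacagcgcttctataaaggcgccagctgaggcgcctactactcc
Fosb: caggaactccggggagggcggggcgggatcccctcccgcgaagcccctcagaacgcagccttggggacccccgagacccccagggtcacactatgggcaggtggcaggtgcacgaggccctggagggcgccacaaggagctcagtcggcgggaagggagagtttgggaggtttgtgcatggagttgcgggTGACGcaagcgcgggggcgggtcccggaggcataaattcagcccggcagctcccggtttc
Junb: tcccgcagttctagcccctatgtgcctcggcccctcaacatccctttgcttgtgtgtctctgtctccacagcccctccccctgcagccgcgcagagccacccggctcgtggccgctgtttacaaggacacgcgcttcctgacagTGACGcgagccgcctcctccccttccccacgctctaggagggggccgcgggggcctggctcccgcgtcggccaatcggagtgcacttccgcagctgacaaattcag
Egr2: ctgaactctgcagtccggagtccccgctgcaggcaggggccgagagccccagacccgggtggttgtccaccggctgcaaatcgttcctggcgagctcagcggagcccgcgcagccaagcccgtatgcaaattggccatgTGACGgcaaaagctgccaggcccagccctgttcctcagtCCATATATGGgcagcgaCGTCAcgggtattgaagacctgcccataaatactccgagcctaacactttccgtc

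The Fos window held 2 half-sites, 129 to 125 and 66 to 62 bases before the start. Fosb held 1, at 60 to 56 bases, and Junb held 1, at 106 to 102 bases. The Egr2 window held half-sites at 111 to 107 and 55 to 51 bases, with a CArG box at 72 to 63 bases between them. Of the 5 Egr2 start sites, 3 with overlapping windows held this same trio, and another held a different CArG box. No half-site was found in the windows of Fosl2, Jun or Jund. The Fosl2 window, chr5:32136222-32136471 on the plus strand, lies downstream of the start of Fosl2-001 at 32135801. That transcript carried 97.8% to 100% of the gene's value, and the bases before its start were not searched. Both strands were searched over 32851 RefSeq windows of the same length, and 17.8% held the half-site and 1.47% the CArG box. The full element TGACGTCA, which contains both forms of the half-site, was in 1.55% of all windows and in no member window searched. Variants with other letters were not counted, and the Jun window held TGACATCA, which differs from the full element by 1 base. The AP-1 element, TGACTCA or its complement TGAGTCA, was in 4.46% of all windows and in no member window searched. Neither count covers Fosl1, Egr1 or Egr3. A match describes the letters of the window and does not show a bound site.

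The control library had another make-up than the treated ones, and this touches every comparison with it. CPM values scale the counts of a library to its size. Mitochondrially encoded genes took 69.3% of the control library against 43.2% to 58.1% of the treated ones. The share counted as nuclear genes was 7.9% in the control, against 25.95% to 37.98% in the treated libraries. Both shares together leave out the pseudogenes and ribosomal RNA genes outside the mitochondrial genome, so the nuclear share is not all nuclear RNA. The mitochondrial share alone therefore does not describe the difference in make-up. At 1 CPM or more the control had 9791 genes, and each treated library had 12867 to 13551. The median gene was 1.69 higher with forskolin and 1.66 higher with cAMP than in the control, on the log2(CPM + 1) scale on which all differences are given. The comparisons are given on the deposited scale and after median-of-ratios scaling, which divides a library by its typical ratio to the other libraries and left the median gene at 0.18 and 0.16. The ratio-scaled values are the ones that set a member against other genes of its library. Depth is not stated; if the small offset in the table stands for 0.0001 read, the libraries held 34200000 to 51700000 reads, and the members other than Fosl1 had between 21 reads (Fosb) and 435 reads (Jund) in the control.

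The keratinocyte identity of the tissue was checked on 18 markers, of which none was at 0 in any library. Their summed level was 3588 CPM in the control, 8307 and 10561 with forskolin, and 4632 and 9880 with cAMP. After ratio scaling the direction of the sum turned, with 11316 in the control and between 4147 and 7428 with treatment. Single markers did not all follow the sum: Lor was highest in the control as deposited, and Krt14 was lowest there after scaling. Each of the 12 sebocyte markers was lowest in the control on both scales, except Awat2 after scaling. They summed to 269 CPM in the control, 2480 and 3938 with forskolin, and 7672 and 7904 with cAMP. After scaling the sums were 847 in the control and 1744 to 6869 with treatment. Pparg was listed at 0 in the control. The 9 T cell markers summed to 132 CPM in the control and 412 to 850 with treatment, but scaled they overlapped, at 416 and 369 to 598; Ccl5 was at 0 in the control, forskolin 1 and cAMP 2. The 10 Langerhans and myeloid markers, none at 0, summed to 115 CPM in the control and 319 to 835 with treatment, and scaled they too overlapped, at 362 and 285 to 587. The 10 fibroblast markers summed to 195 CPM in the control and 426 to 599 with treatment, and scaled they turned, to 614 and 293 to 456. In forskolin 1 Vim and Postn made up most of that sum, while Col1a1 was at 2.08 CPM there and 40.2 in the control. Pdgfra was at 0 in the control and cAMP 2, and Twist2 in the control and forskolin 1. The 8 melanocyte markers, none at 0, stood at 28.9 CPM in the control and 103 to 258 with treatment, and scaled at 91.2 and 72.2 to 231. The 10 skeletal muscle markers, none at 0, stood at 88.1 and 125 to 206, and scaled they turned, to 278 and 75.6 to 185. The 8 endothelial markers summed to 2.07 CPM in the control and to between 2.89 and 5.74 with treatment, and scaled to 6.54 and 2.03 to 4.98; 6 of them were at 0 in the control, 3 in forskolin 1, 1 in cAMP 1 and 2 in cAMP 2. The part of these cell types in the results on the members was not tested. In bulk tissue, fewer cells of a type and less RNA per cell cannot be told apart.

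On the deposited scale 9 of 10 members, all but Fosl1, were higher in all 4 treated libraries than in the control, where 87.5% of all tested genes did the same. After ratio scaling 7 members did so, namely Fos, Fosb, Fosl2, Junb, Egr1, Egr2 and Egr3, against 40.8% of all tested genes. Jun and Jund overlapped the control on that scale, and Fosl1 was listed at 0 in the control and in cAMP 2. The 10 genes summed to 34.5 CPM in the control, 421 and 363 with forskolin, and 508 and 294 with cAMP.

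**Figure D1:**
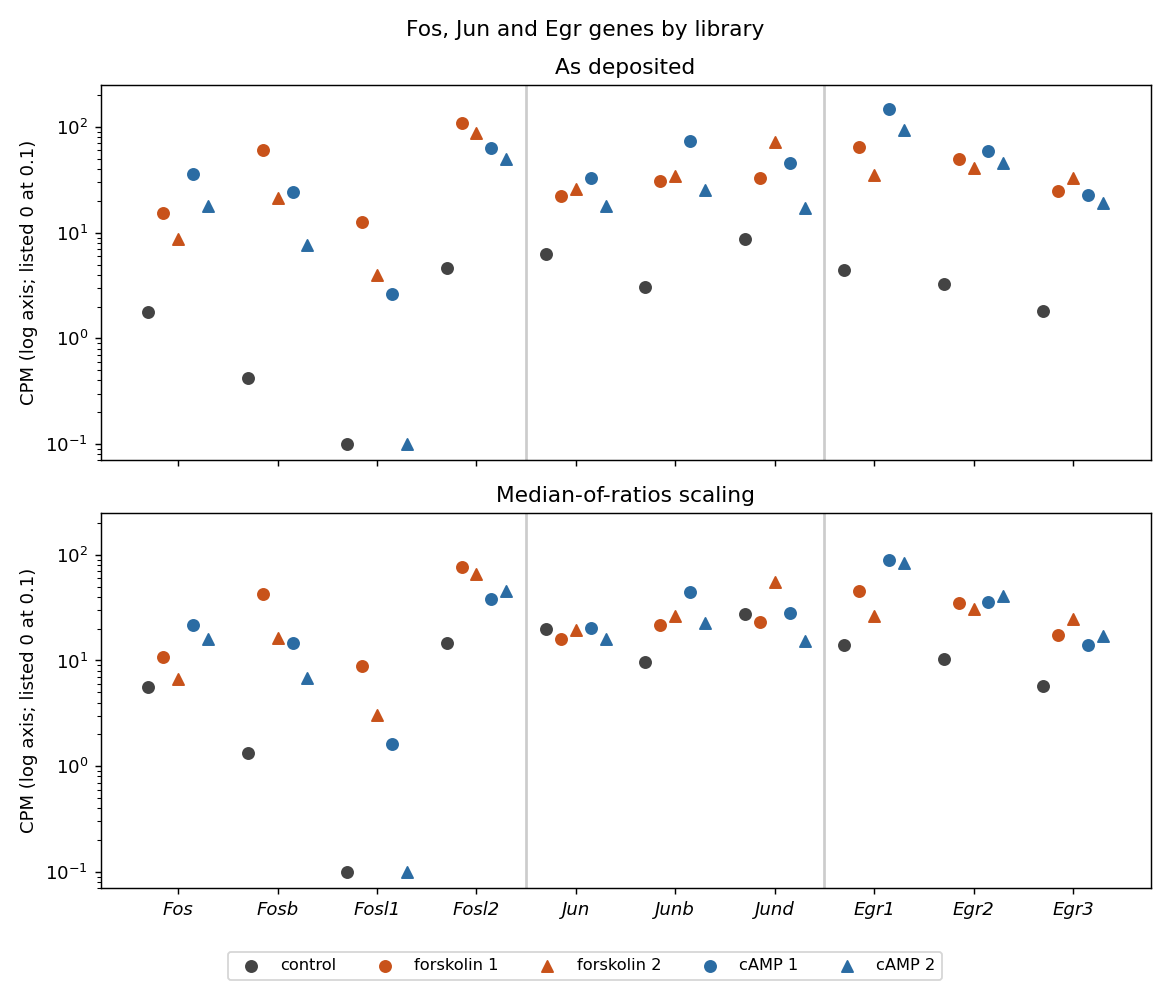
Level of each Fos, Jun and Egr gene in each of the 5 libraries, in CPM on a log axis, as deposited (upper panel) and after median-of-ratios scaling (lower panel), with values listed at 0 drawn at 0.1. On the deposited scale every gene has its lowest point in the control (Fosl1 shares that place with cAMP 2); after scaling the control points of Jun and Jund lie among the treated ones.

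Forskolin was first compared with the untreated control library. The part of the lotion and of the control's make-up in the differences was not tested. Fosb and Fosl2 rose most with forskolin as deposited, followed by Egr2 and Egr3. By limma's moderated test on log2(CPM + 1), 10 of 10 members rose on the deposited scale, where 66.3% of all tested genes rose. On the ratio-scaled values 7 of 10 rose, against 14.4% of all genes, and the members that did not pass were Fos, Jun and Jund. No member fell on either scale, where 0.341% and 7.39% of all genes fell. The filter can pass a gene through treated libraries alone, as for Fosb and Fosl1, but not through the 1 control library. The shares over all tested genes can therefore lean toward rises. Without the filter 8 members rose with forskolin as deposited and no member fell, beside 27.3% and 1.48% of all 21667 genes.

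The comparison of cAMP with the control concerns the second messenger itself, applied to the skin. It shares its control library, and so the same limits, with the forskolin comparison. Egr1 had the widest rise as deposited, followed by Egr2, Junb, Fosb, Fosl2 and Fos. On the deposited scale 9 of 10 members rose, all but Fosl1, where 65.1% of all tested genes rose. On the ratio-scaled values 7 of 10 rose, against 14.8% of all genes, and Fosl1, Jun and Jund did not pass. No member fell, where 0.436% of all genes fell as deposited and 7.78% after scaling. Without the filter 8 members rose with cAMP as deposited and no member fell, beside 27.3% and 1.88% of all genes. With 1 control library, the spread of that group is taken from the treated libraries, and no value can be given without it.

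**Figure D2:**
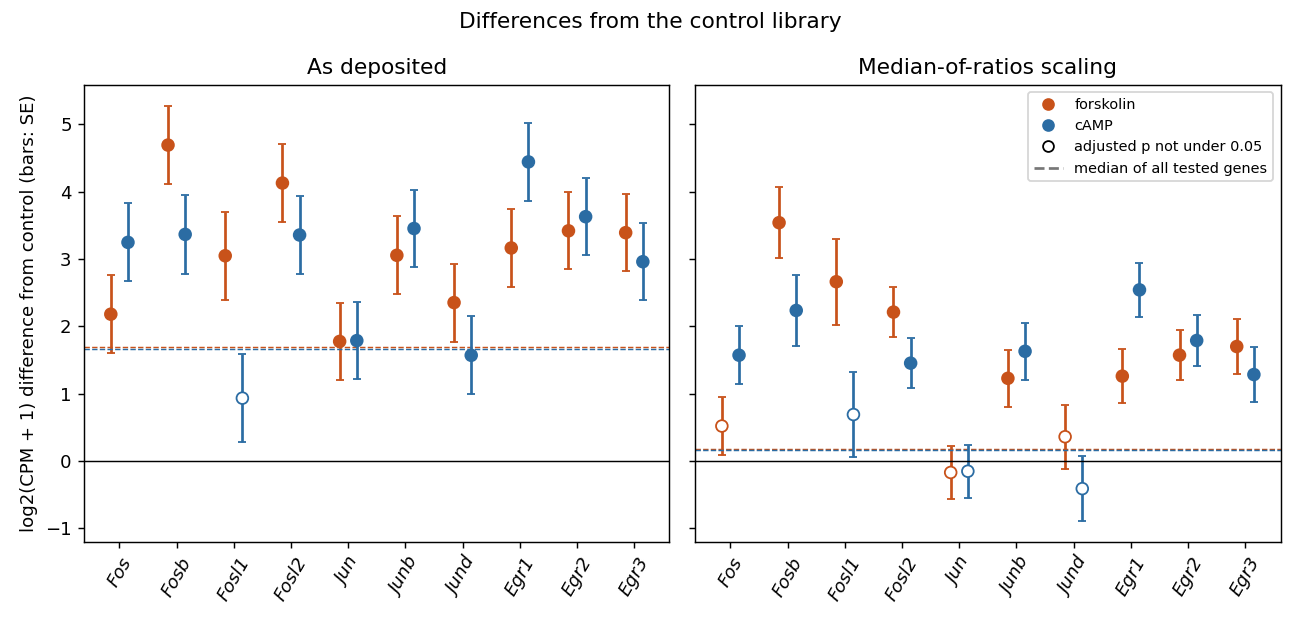
Difference of each member from the control library on the log2(CPM + 1) scale, with its standard error, for forskolin and cAMP (2 libraries each, 1 control), on the deposited and on the ratio-scaled values; open points had an adjusted p of 0.05 or more, and dashed lines are the median of all tested genes. Jun lies near the median gene on the deposited scale and falls slightly below 0 after scaling, while Fosb with forskolin (4.69 and 3.54) and Egr1 with cAMP (4.44 and 2.54) lie far above it on both.

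Fos (ENSMUSG00000021250, chr12:85473890-85477273) encodes c-Fos, the founding partner in AP-1. It was at 1.78 CPM in the control, 15.3 and 8.77 with forskolin, and 35.9 and 17.9 with cAMP. Both cAMP libraries were above both forskolin libraries, and all 4 were above the control. With cAMP Fos rose by 3.25 ± 0.58 (SE; adjusted p = 8.82e-07), which is 1.58 above the median gene. It also passed on the ratio-scaled values, at 1.57 ± 0.43 (adjusted p = 0.014), though not without cAMP 1 (1.36, adjusted p = 0.0798). With forskolin it rose by 2.18 ± 0.58 on the deposited scale (adjusted p = 0.000712). That call was lost without forskolin 1 (1.81, adjusted p = 0.0615), and the ratio-scaled difference was 0.52 ± 0.43 (adjusted p = 0.389). The full-length transcript Fos-001 carried 71.7% to 100% of the gene's value in each library.

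Fosb (ENSMUSG00000003545, chr7:19302721-19310045) encodes a Fos relative whose shortened splice form, ΔFosB, is long-lived in brain. The level was 0.425 CPM in the control, 60.1 and 21.2 with forskolin, and 24.2 and 7.58 with cAMP. Forskolin 1 was the highest and cAMP 2 the lowest of the treated libraries, and the 2 treatments overlapped on this scale. With forskolin it had the widest rise of any member, 4.69 ± 0.58 (adjusted p = 9.92e-12), or 3.005 above the median gene. After scaling it was 3.54 ± 0.53 (adjusted p = 0.000251). With cAMP the rise was 3.37 ± 0.58 (adjusted p = 4.31e-07), and 2.24 ± 0.53 after scaling (adjusted p = 0.00611), a call that was lost without cAMP 1 (1.73, adjusted p = 0.0793). Only 1 Fosb transcript is listed, so its splice forms were not analysed here.

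Fosl1 (ENSMUSG00000024912, chr19:5447703-5455945) encodes Fra-1, a Fos relative without the activation domain of c-Fos. It was listed at 0 in the control, at 12.7 and 3.999 CPM with forskolin, at 2.65 in cAMP 1 and at 0 in cAMP 2. The forskolin libraries were above the others, and the control and cAMP 2 could not be set apart. Because its control value is listed at 0, no fold is given, and the fitted differences depend on the pseudocount of 1. With forskolin it rose by 3.05 ± 0.65 (adjusted p = 3.5e-05) and by 2.66 ± 0.64 after scaling (adjusted p = 0.0075). When all 21667 genes were tested without the filter on low values, the deposited difference no longer passed (adjusted p = 0.0671). With cAMP the difference was 0.93 ± 0.65 (adjusted p = 0.189), and it passed only when cAMP 2 was left out (1.87, adjusted p = 0.0193).

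Fosl2 (ENSMUSG00000029135, chr5:32135801-32157842) encodes Fra-2, the Fos relative known from differentiating keratinocytes. It had 4.62 CPM in the control, 108 and 87.2 with forskolin, and 63.6 and 50.3 with cAMP. The 3 groups did not overlap, with forskolin highest and the control lowest. With forskolin it rose by 4.13 ± 0.58 (adjusted p = 7.55e-10), and by 2.21 ± 0.37 after scaling (adjusted p = 0.00064). For cAMP the rise was 3.36 ± 0.58 (adjusted p = 3.18e-07) and, after scaling, 1.45 ± 0.37 (adjusted p = 0.0098), which did not pass without cAMP 2 (1.34, adjusted p = 0.0542). Both retained-intron transcripts of Fosl2 stayed at or under 1.53% of the gene in every library.

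Jun (ENSMUSG00000052684, chr4:95049034-95052222) encodes c-Jun, the main partner of Fos proteins. Its levels were 6.32 CPM in the control, 22.5 and 25.8 with forskolin, and 33.2 and 17.7 with cAMP. Every treated library was above the control, and the treatments overlapped. After ratio scaling the same libraries stood at 19.9 in the control, 15.8 and 19.6 with forskolin and 20.1 and 15.8 with cAMP, so the groups overlapped. The deposited rises of 1.78 ± 0.57 with forskolin (adjusted p = 0.00497) and 1.79 ± 0.57 with cAMP (adjusted p = 0.00474) were 0.09 and 0.12 above the median gene. On the ratio-scaled values the differences turned to -0.17 ± 0.39 (adjusted p = 0.778) and -0.15 ± 0.39 (adjusted p = 0.805). The forskolin call was also lost without forskolin 1 (1.87, adjusted p = 0.0566) or forskolin 2 (1.68, adjusted p = 0.0742). Junos, which lies on the opposite strand, had at most 0.916 CPM in any library, and whether the counting used strand is not given in the sources used here.

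Junb (ENSMUSG00000052837, chr8:84976909-84978748) encodes JunB, a Jun relative known as a brake on epidermal growth and inflammation. It was at 3.06 CPM in the control, 30.8 and 34.7 with forskolin, and 73.9 and 25.4 with cAMP. cAMP 1 was the highest and cAMP 2 the lowest treated library, so the forskolin libraries lay between them. Junb rose by 3.06 ± 0.58 with forskolin (adjusted p = 3.24e-06) and by 3.45 ± 0.58 with cAMP (adjusted p = 1.61e-07). After scaling it rose by 1.23 ± 0.43 (adjusted p = 0.0473) and 1.63 ± 0.43 (adjusted p = 0.0113). The ratio-scaled calls were lost without forskolin 2 (1.09, adjusted p = 0.111) and without cAMP 1 (1.16, adjusted p = 0.0961), in that order. Jun and Junb, which pair with the same Fos proteins, thus stood on different sides of the test after scaling; the difference between the 2 genes was not tested.

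Jund (ENSMUSG00000071076, chr8:70697739-70700616) encodes JunD, the Jun protein that resting cells already hold. The control had 8.81 CPM, forskolin 33.0 and 72.9, and cAMP 46.1 and 17.02. Forskolin 2 was the highest and cAMP 2 the lowest treated library. On the deposited scale Jund rose by 2.35 ± 0.58 with forskolin (adjusted p = 0.000269), a call lost without forskolin 2 (1.79, adjusted p = 0.059) and without the filter on low values (adjusted p = 0.062). The cAMP rise of 1.57 ± 0.58 (adjusted p = 0.0134) was lost without cAMP 1 (0.88, adjusted p = 0.169), without forskolin 1 (adjusted p = 0.0535) and without the filter (adjusted p = 0.16). Ratio-scaled differences were 0.36 ± 0.48 with forskolin (adjusted p = 0.605) and, with the sign turned, -0.41 ± 0.48 with cAMP (adjusted p = 0.554). Gm11175, which overlaps Jund on the opposite strand, was at 0.909 CPM in the control, 5.41 and 26.2 with forskolin, and 6.86 and 0.391 with cAMP, so it was highest in the library where Jund was highest. How the reads of this pair were divided was not tested.

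Egr1 (ENSMUSG00000038418, chr18:34859823-34864984) encodes a zinc finger factor that answers growth factors and wounding. It was measured at 4.41 CPM in the control, 64.4 and 35.0 with forskolin, and 147 and 92.8 with cAMP. The 3 groups did not overlap, and here cAMP was highest. With cAMP it rose by 4.44 ± 0.58 (adjusted p = 2.1e-11), 2.78 above the median gene, and by 2.54 ± 0.40 after scaling (adjusted p = 0.000284). With forskolin it rose by 3.16 ± 0.58 (adjusted p = 1.6e-06) and by 1.26 ± 0.40 after scaling (adjusted p = 0.0312). That last call was lost without forskolin 1 (0.89, adjusted p = 0.171), cAMP 1 (1.26, adjusted p = 0.0546) or cAMP 2 (1.26, adjusted p = 0.0532). The shorter of the 2 listed Egr1 transcripts made up 95.8% to 100% of the gene's value in each library.

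Egr2 (ENSMUSG00000037868, chr10:67535475-67542188) encodes Krox20, a factor known from myelin and from cells of the hair shaft. It stood at 3.28 CPM in the control, 49.4 and 40.6 with forskolin, and 59.1 and 45.7 with cAMP. The treated libraries lay close together and overlapped between treatments, and all were above the control. The rise was 3.42 ± 0.57 with forskolin (adjusted p = 1.98e-07) and 3.63 ± 0.57 with cAMP (adjusted p = 3.17e-08). After scaling it was 1.57 ± 0.37 (adjusted p = 0.00719) and 1.79 ± 0.37 (adjusted p = 0.00263). These calls also passed when any 1 treated library was left out, on both scales. The gene's 7 transcripts were filled differently: in the control Egr2-005 held 42.1%, Egr2-001 31.1% and Egr2-004 25.5% of its value, while in the treated libraries Egr2-002 held 38.04% to 76.9%. Egr2-002 and Egr2-001 start 1 base apart, just downstream of the window with the CArG box, and with about 162 estimated reads for the whole gene in the control these shares were not tested.

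Egr3 (ENSMUSG00000033730, chr14:70077445-70080157) encodes a close relative of Egr1 that is known as a target of calcium and growth factor signals. Its level was 1.82 CPM in the control, 25.0 and 32.8 with forskolin, and 22.9 and 19.2 with cAMP. Forskolin lay above cAMP without overlap, by a small margin, and both were above the control. The rise was 3.39 ± 0.57 with forskolin (adjusted p = 2.65e-07) and 2.96 ± 0.57 with cAMP (adjusted p = 5.48e-06). Scaled, it was 1.70 ± 0.40 (adjusted p = 0.00719) and 1.28 ± 0.40 (adjusted p = 0.0297). The ratio-scaled cAMP call was lost without cAMP 1 (1.43, adjusted p = 0.0578) or cAMP 2 (1.14, adjusted p = 0.11).

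Forskolin and cAMP can be compared directly, with 2 libraries each and without the control's make-up in the difference. Fosl1 was the only member that passed, higher with forskolin by 2.11 ± 0.53 (adjusted p = 0.035), where 0.189% of all tested genes were called higher and 52 genes (0.378%) were called in either direction. It rests on single libraries: it did not pass without forskolin 1 (1.39, adjusted p = 1), forskolin 2 (2.84, adjusted p = 0.0875) or cAMP 2 (1.18, adjusted p = 0.452), and leaving out cAMP 1 moved it to 3.05 (adjusted p = 0.038). After ratio scaling it was 1.97 ± 0.52 (adjusted p = 0.114) and no member passed, where 0.0944% of all genes were called higher and 0.254% lower (0.349% in all), while 5 members had an unadjusted p under 0.05, as did 11.2% of all tested genes.

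The other members did not differ between treatments by the adjusted test. Egr1 was lower with forskolin by -1.28 ± 0.47 (adjusted p = 0.37) and Fos by -1.07 ± 0.47 (adjusted p = 0.614). Fosb was at 1.33 ± 0.48 (adjusted p = 0.34), and Fosl2 and Jund were at 0.77 ± 0.47 and 0.78 ± 0.47. The differences of Jun, Junb, Egr2 and Egr3 lay between -0.40 and 0.43. On the deposited scale Fosl1, Fosl2 and Egr3 had both forskolin libraries above both cAMP libraries, an order found in 16.7% of all tested genes. Fos and Egr1 had the opposite order, found in 17% of genes. After scaling Fosb joined the first set (21.2% of genes) and Egr2 the second (20.4% of genes).

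Shares of the 10-gene sum and ranks within a library do not depend on how a library is scaled. The 3 Jun genes made up 52.7% of the sum in the control, 20.5% and 36.7% with forskolin, and 30.1% and 20.5% with cAMP. The 3 Egr genes made up 27.6% in the control, 31.4% ± 2.16 with forskolin and 49.4% ± 6.17 with cAMP (SD, n = 2 each). The 4 Fos genes made up 19.8% in the control, 39.995% ± 9.34 with forskolin and 25.3% ± 0.670 with cAMP (SD, n = 2 each). Thus the control sum was mostly Jun genes, and every treated library had a smaller Jun share than the control. A long gene counts for more in such a sum, so the shares compare libraries and not genes.

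**Figure D3:**
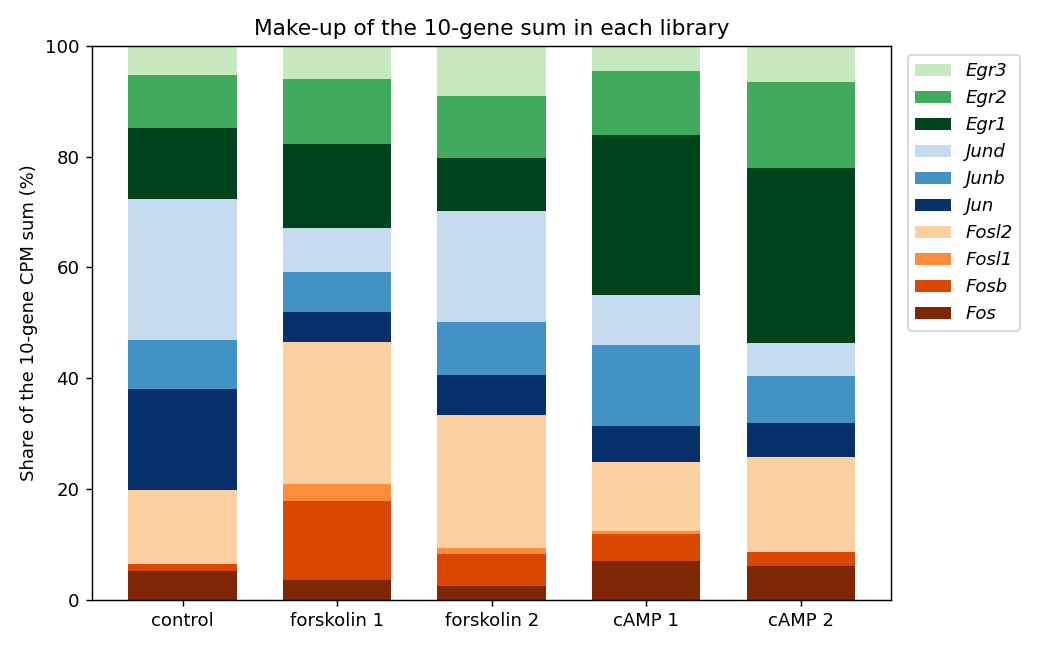
Share of each member in the CPM sum of the 10 genes, in percent, for each library, with Fos genes in orange, Jun genes in blue and Egr genes in green. The Jun genes take 52.7% of the control bar and 20.5% to 36.7% of the treated bars, and the Egr genes take 45.0% and 53.7% of the cAMP bars.

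Each gene's rank was its percentile among all tested genes of its library. In all 4 treated libraries 7 members ranked above their place in the control, against 33.3% of all tested genes, and none ranked below it in all 4, against 32%. Fosb went from percentile 20.01 in the control to 93.1 and 73.6 with forskolin and 71.0 and 47.9 with cAMP. Egr1 went from 70.3 to 93.8 and 85.9 with forskolin and 97.4 and 97.1 with cAMP. Fosl2, already at 71.5 in the control, reached 97.1 and 96.3 with forskolin and 91.3 and 93.1 with cAMP. Jun kept near its place, at 79.4 in the control and between 72.7 and 79.8 with treatment. Fos ranked at 44.7 in the control and hardly higher in forskolin 2, at 46.8, but at 81.7 and 73.6 with cAMP.

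**Figure D4:**
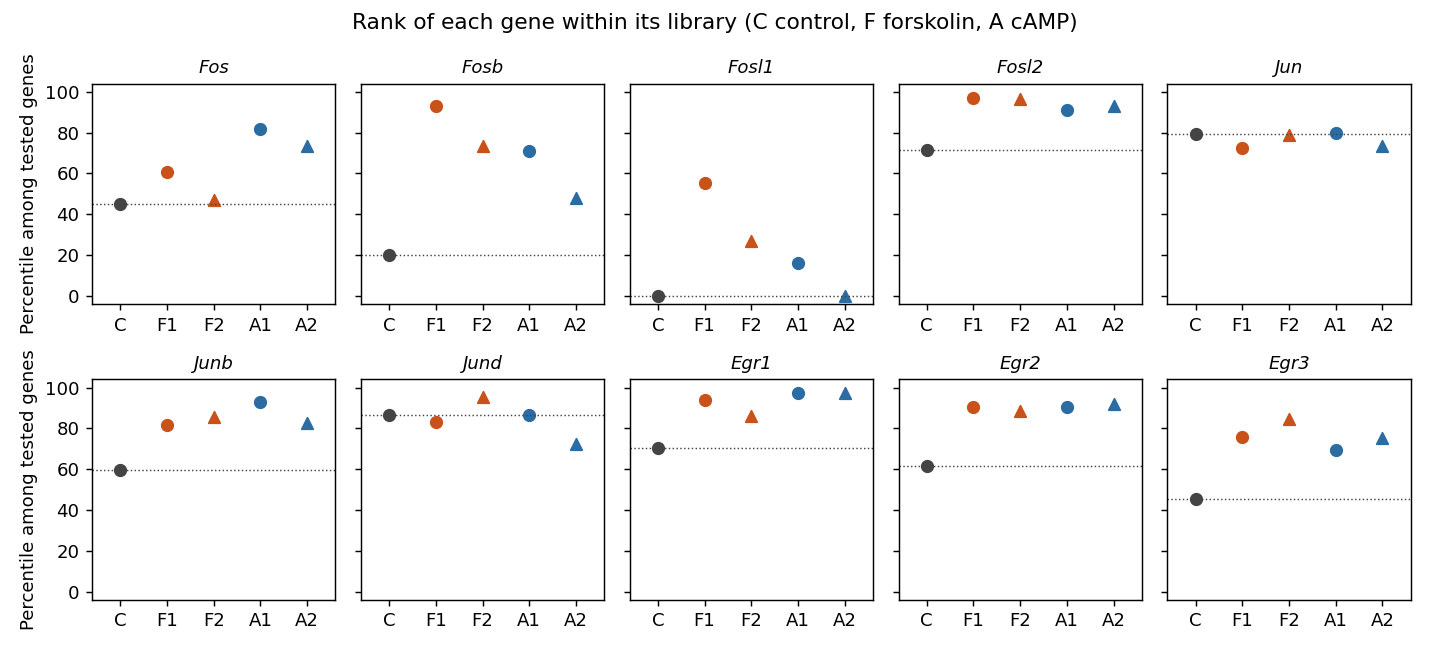
Percentile rank of each member among the 13764 tested genes of its own library, with the control's rank as a dotted line (C control, F1 and F2 forskolin, A1 and A2 cAMP). Fosb and Egr3 start lower in the control and lie far above it in the treated libraries, while the ranks of Jun and Jund scatter around the control's.

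Levels of different genes were compared per kilobase of transcript for the 5 members whose transcript ends matched the annotation. In the control Jun was at 1.98, Egr1 at 1.45, Fos at 1.22 and Fosl2 at 0.706 CPM per kilobase. Egr2 was listed above them at 4.11, but there 42.1% and 25.5% of its CPM were assigned to transcripts of 773 and 427 bases, whose shortness raises the value, so its place in the control is uncertain. Of the Fos CPM in the control 18.9% was assigned to a transcript of 631 bases, so the order of Fos and Fosl2 there is uncertain too. Fosl2 was at 16.9 and 14.0 with forskolin, above Jun at 7.04 and 8.09 and Fos at 8.08 and 6.47. Fos-001 carried 71.7% of the Fos CPM in forskolin 2, so shorter transcripts raise the 6.47 as well. With cAMP Egr1 led at 48.3 and 30.6, followed by Egr2 at 21.7 and 16.7 and Fos at 19.9 and 8.49. The forskolin order at the top was not the same in the 2 libraries: Egr1 had 20.9 and 11.5, and Egr2 17.2 and 19.1. Jun had 10.4 and 5.55 and Fosl2 9.79 and 7.78 with cAMP, so that both were below Fos in each cAMP library but overlapped it across libraries.

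Partner and cofactor genes were counted next. Of 14 tested AP-1 and Egr partners, such as other leucine zipper factors and the Nab corepressors of Egr proteins, 11 rose with forskolin and 7 with cAMP on the deposited scale, where 66.3% and 65.1% of all genes rose, and none passed in either direction after scaling. Of all genes 14.4% rose and 7.39% fell with forskolin after scaling, and 14.8% and 7.78% with cAMP. The partners' median difference after scaling was 0.29 with forskolin and -0.09 with cAMP, beside 0.18 and 0.16 over all genes. Atf3, a stress-induced partner of Jun, was at 1.70 CPM in the control, 45.7 and 10.0 with forskolin and 24.2 and 8.16 with cAMP, and its scaled difference with forskolin was 1.41 ± 0.60 (adjusted p = 0.0952). Of the 6 genes for serum response factor and its cofactors, 5 rose with forskolin and 4 with cAMP as deposited. After scaling the list's median was 0.34 with forskolin and 0.05 with cAMP, and only Mkl2, a cofactor of serum response factor, passed, at 1.53 ± 0.43 with forskolin (adjusted p = 0.0173).

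The MAP kinase cascade carries growth factor signals to the Fos and Egr promoters. Of its 20 genes, 18 rose with each treatment on the deposited scale; after scaling 3 rose with forskolin and 2 with cAMP, and none fell. Over all genes 66.3% and 65.1% rose as deposited. After scaling 7.39% and 7.78% of all genes fell and 14.4% and 14.8% rose, so the list's scaled shares that rose are near the background. Mapk7, which encodes the kinase ERK5, rose in both, by 1.69 ± 0.42 with forskolin (adjusted p = 0.00988) and 1.34 ± 0.42 with cAMP (adjusted p = 0.0302) on the scaled values.

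Some other immediate-early genes rose as well. Of 41 tested, 35 rose with forskolin and 29 with cAMP on the deposited scale; after scaling 15 rose and none fell with forskolin, and 8 rose and 2 fell with cAMP. Over all genes 66.3% and 65.1% rose as deposited and 14.4% and 14.8% after scaling, so the scaled cAMP count is close to that of all genes. Their median scaled difference was 0.62 with forskolin and 0.40 with cAMP. Ier2 was at 0.729 CPM in the control, 20.9 and 21.3 with forskolin and 55.8 and 20.5 with cAMP. Socs3, a feedback inhibitor of cytokine signals, was at 0.587 in the control, 37.0 and 28.2 with forskolin and 33.6 and 11.8 with cAMP. Myc, a driver of cell growth, went from 3.10 to 64.9 and 49.0 with forskolin and 56.0 and 34.8 with cAMP. Klf4, a barrier factor of differentiating keratinocytes, fell with cAMP on the scaled values (-1.64 ± 0.40, adjusted p = 0.00789), though its deposited difference was 0.43. Between the treatments 2 of the 41 passed as deposited, Nr4a3 and Nr4a2, and 1 after scaling. Nr4a3, an orphan nuclear receptor gene that cAMP is known to induce, was higher with forskolin on both scales (2.51 ± 0.49, adjusted p = 0.000617, and 2.42 ± 0.48, adjusted p = 0.0371).

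Genes known as AP-1 targets included both rises and falls, as did all tested genes. Of 21 tested, 16 rose and 1 fell with forskolin and 11 rose and 1 fell with cAMP on the deposited scale; after scaling 5 rose and 3 fell with forskolin, and 3 rose and 4 fell with cAMP. Of all genes 14.4% rose and 7.39% fell with forskolin after scaling, and 14.8% and 7.78% with cAMP. Vegfa, an angiogenic growth factor, was at 0.567 CPM in the control, 18.0 and 16.9 with forskolin and 21.6 and 13.9 with cAMP, and its scaled rise was 2.30 ± 0.41 with each treatment (adjusted p = 0.000972 and 0.000767). Lor, which encodes the cornified envelope protein loricrin, had 27.9 CPM in the control, 10.4 and 9.38 with forskolin and 13.5 and 2.60 with cAMP. It fell on both scales, with deposited differences of -1.41 ± 0.59 with forskolin (adjusted p = 0.0274) and -2.002 ± 0.59 with cAMP (adjusted p = 0.002). Ivl, which encodes involucrin of the same envelope, fell after scaling only, at -1.91 ± 0.44 with forskolin (adjusted p = 0.00611) and -2.83 ± 0.44 with cAMP (adjusted p = 0.000284), while its deposited forskolin difference was 0.14.

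Chaperone genes, which answer heat and the handling of tissue as the Fos and Egr genes do, were counted beside them. Of 16, 13 rose with forskolin and 14 with cAMP on the deposited scale, beside 66.3% and 65.1% of all genes. After scaling 1 rose and 2 fell with each treatment. Of all genes 14.4% rose and 7.39% fell with forskolin after scaling, and 14.8% and 7.78% with cAMP. The list's median was 0.16 with forskolin and -0.07 with cAMP, beside 0.18 and 0.16 over all genes. Hspd1, the mitochondrial chaperonin, was the gene that rose after scaling (1.22 ± 0.37 with forskolin, adjusted p = 0.0263, and 1.90 ± 0.37 with cAMP, adjusted p = 0.00163). Hspb1 and Dnajb1, both heat shock genes, fell after scaling with each treatment, at -1.49 to -1.09. The part of dissociation in the levels of the members was not tested.

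The genes most like each member were sought over the 5 libraries among 6873 tested genes of at least median level, by the root mean square distance between log2(CPM + 1) profiles centred on their own mean. The distances are descriptions, and since the control stands apart in most genes they share that step. As deposited Jun had the closest neighbour, Akt2 at 0.0382, followed by Egr3 with Trrap at 0.0488 and Junb with Cox14 at 0.0748. Fosb and Fosl1 had the most distant ones, Csf2rb at 0.327 and Itga3 at 0.398. Fos lay nearest to Cox7b at 0.0858, Egr2 to Ocel1 at 0.0844, Fosl2 to Golgb1 at 0.116, Jund to Fam129a at 0.120 and Egr1 to Gm14539 at 0.146. After ratio scaling only Fosb kept its first neighbour, Csf2rb at 0.271. Those of the other members were then Pet100 for Fos, Rfx2 for Fosl1, Slc1a5 for Fosl2, Mvb12a for Jun, Mrps26 for Junb, Gm2a for Jund, Hilpda for Egr1, Bzw2 for Egr2 and Cdc42bpb for Egr3, so the nearest gene depends on the scaling. On either scale none of the 3 nearest genes of any member was on the list of other immediate-early genes. That list has only 41 tested genes beside 6873 candidates, so this absence says little. Among the members themselves Fosl2 and Egr3 were closest, at 0.350, then Egr2 and Egr3 at 0.382, and Fosl1 and Egr1 were farthest apart, at 1.73. After ratio scaling the same 3 pairs stood at 0.298, 0.359 and 1.52.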

How the data were processed

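RNA of whole mouse epidermis was sequenced in 5 libraries (1 control, 2 forskolin, 2 cAMP) from an Illumina stranded mRNA preparation, per the labels' protocols. bcl2fastq 2.17, STAR and Partek are named in the submitters' processing notes; for the build, annotation and strand setting, nothing is given in the sources used here. The authors deposited a table of CPM values for 59869 transcripts, with a small offset in place of 0. Column sums were 805256 to 947144 CPM. The table's transcript identifiers were found in GENCODE M21 (GRCm38) for 98.3%, with matching start and end for 90.8% of these. The 3 rows without a gene were dropped (at most 0.0679% of any library). Whole reads could not be recovered (31.3% to 76.3% of gene sums between 0.5 and 20 reads came out whole, within 0.1), so no count model was used and no interval for counting error is given.

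Transcripts were summed per gene. limma 3.58.1 in R 4.3.3, with an intensity trend, was fitted to log2(CPM + 1) of 13764 genes (2 or more libraries at 1 CPM or more), over all 5 libraries in 3 groups. Tests were two-sided with Benjamini-Hochberg adjustment over all tested genes at 0.05. The procedure was also run on simulated data. These did not hold the control's different make-up, so that run does not cover it. Median-of-ratios factors came from 11512 tested genes above 0.05 CPM in every library. Alternatives covered scaling, pseudocount, filters, the variance model, leaving out libraries and a replicate block. The members, the gene lists and the markers were chosen with earlier results of these data known. All 10 members are named whatever their values, with up to 4 genes of each list by smallest p and the 3 genes most like each member; the text uses a part of these.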

Additional observations from a re-analysis of the deposited data

Results flagged for a closer look

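The 2 treatments differed in Fosl1, which encodes Fra-1. It was higher with forskolin than with cAMP by 2.11 on the log2(CPM + 1) scale by limma's test of that difference, with 12.7 and 3.999 CPM against 2.65 CPM and a value listed at 0. All 4 values are low, and the difference did not pass after median-of-ratios scaling (1.97, adjusted p = 0.114).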

How the results depend on the processing

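Against the control, scaling changed the most calls. The tested genes called against the control numbered 9177 for forskolin and 9025 for cAMP as deposited, 2997 and 3113 with median-of-ratios scaling, and 3110 and 3130 with scaling to nuclear genes; for forskolin, leaving out 1 library gave 5283 (without forskolin 1) to 10253. Under the same 2 scalings Jun turned to -0.17 and -0.051 with forskolin and to -0.15 and -0.088 with cAMP, and Jund turned to -0.41 and -0.35 with cAMP. Leaving out 1 library together with median-of-ratios scaling, chosen after seeing the data, gave 6 members called higher with forskolin in each case and 3 (without cAMP 1), 5 (without cAMP 2) and 7 (otherwise) with cAMP. In those fits Jun ranged from -0.32 to -0.022 with forskolin and from -0.31 to 0.011 with cAMP, Jund from -0.25 to 0.97 with forskolin and from -0.83 to 0.0068 with cAMP, and Fosl1 with cAMP from -5.43e-06 to 1.38. Leaving out 1 library on the deposited scale changed which members were called higher in some fits. Fos, Jun or Jund were lost with forskolin, and with cAMP Jund was lost or Fosl1 gained. The share of all genes called changed between these fits as well.

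Between forskolin and cAMP, the 1 member called higher became 0 with median-of-ratios scaling, scaling to nuclear genes, a pseudocount of 0.1, no filter, a filter of 10 CPM (which drops Fosl1), and with only the 4 treated libraries and median-of-ratios scaling. Leaving out 1 library also changed whether any member was called, as deposited and with median-of-ratios scaling. The 52 genes called in all became 16 with a pseudocount of 0.1, 0 with no filter by limma (967 at an unadjusted p under 0.05), 33 with a filter of 10 CPM, 32 without the intensity trend, and 11 to 70 when 1 library was left out. Jun changed sign to 0.036 with scaling to nuclear genes. With 1 library left out Jun ranged from -0.45 to 0.42 and Junb from -1.15 to 0.36; with median-of-ratios scaling as well, Jun was 0.13 without forskolin 1 and 0.14 without cAMP 1, and Junb 0.073 without cAMP 1.

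Whether the replicate numbers pair the libraries is not labelled. The correlation of deviations between same-numbered libraries was -0.05, and -0.07 with median-of-ratios scaling, which cannot settle the question. With the replicate block Fosl1 remained the 1 member called and 55 genes were called; with the block and median-of-ratios scaling 2 members were higher (Fosb, Fosl1) and 1 was lower (Egr1), among 187 genes called.

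Precision is limited by the single control library, and for Fosb and Fosl1 by low levels in it.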
